A study of Mus musculus with 24 samples.

Results

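Isoallolithocholic acid (IsoAlloLCA) and isolithocholic acid (IsoLCA) are bile acid epimers that differ only in the configuration at the carbon where the A and B rings of the steroid join. They were compared at the same dose, 50 µM, in CD8+ T cells of mice, activated in vitro beforehand. The series asked how bile acids alter gene expression in T cells. The members are the 6 libraries whose titles name these acids, 3 for each, out of the 24 RNA-seq libraries of the series. A further 3 libraries of untreated control cells gave each acid its own reference, and the remaining libraries, of cells given LCA, DehydroLCA or UDCA at 50 µM or TCA or TCDCA at 100 µM, entered the estimate of the spread. Exposure was for 24 h according to the series' design text and overnight according to the treatment protocol. The labels give neither the strain, age or genotype of the mice nor how the cells were activated. Whether replicate libraries stem from different mice or from different cultures is not stated. All p-values therefore describe the spread among these samples, and that spread may be technical.

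Both acids are made by gut bacteria from lithocholic acid and carry their hydroxyl group in the beta orientation. The fused rings of IsoLCA meet in the cis arrangement, which bends the molecule, and those of IsoAlloLCA meet in the trans arrangement, which leaves it flat. IsoAlloLCA is known for promoting Foxp3+ regulatory T cells from naive CD4+ cells in culture. Activated CD8+ T cells read antigen receptor signals through the NFAT, AP-1 and NF-kB transcription factors, and they switch on growth, lipid synthesis and division while shutting down the adhesion and homing genes of resting cells.

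The 24 libraries held 25998051 to 41024340.5 counts in genes. Libraries of the same group differed by more than sampling noise among the 2 acids and control, and none was counted as a duplicate. On the first principal component, which held 38.4% of the variance over tested genes, the 3 IsoAlloLCA libraries stood apart from the others. The exonic share of the library totals was 81.2%, 75.6% and 78.1% with IsoAlloLCA and 84.7%, 81.9% and 83.3% with IsoLCA, a difference of means of -5.02 percentage points (2-sided exact permutation p = 0.1, the smallest that 3 against 3 allows). The second IsoAlloLCA library had the lowest share of all 24. The part of this difference in the results that follow was not tested, but each list and gene was also fitted with the exon share as a covariate. The defining T cell genes Cd3e, Cd3d, Cd3g, Cd8a and Cd8b1 were present and had means of 266 to 664 CPM in both groups. In the full CD8 T cell marker list of 7, Cd3e, Cd3d and Cd3g were higher with IsoAlloLCA, and Cd8a, Thy1 and Gzmb lower. The list summed to 5140 to 6238 CPM with IsoAlloLCA and 6346 to 7022 CPM with IsoLCA. With the exon share as a covariate 4 members were higher and 1 lower. CPM is the count of a gene scaled to the library's total over tested genes. Markers of other cell types were low beside these: the myeloid list (4 of 12 tested, 3 higher) summed to 6.35 to 8.68 CPM with IsoAlloLCA and 2.95 to 3.77 CPM with IsoLCA, with S100a8, S100a9 and Elane at 0 counts in all 6 libraries. The natural killer list (4 of 6 tested, 4 higher) summed to 6.26 to 7.87 and 2.64 to 3.17 CPM, and B cell markers (2 of 7 tested, 1 lower) to 4.31 to 5.26 and 5.32 to 5.81 CPM. That 1 call, of Cd79b, was lost without IsoAlloLCA library 2 or 3 and without IsoLCA library 1 or 3 (adjusted p = 0.0507 to 0.329). The stromal and erythroid list (3 of 10 tested, 2 higher) stood above those lists, at 47.7 to 53.6 CPM with IsoAlloLCA and 40.3 to 41.9 CPM with IsoLCA. Most of it was Pecam1, with Col3a1 and Dcn at 0 counts. The CD4 T cell list (3 of 3 tested, 1 higher) summed to 43.9 to 47.3 CPM with IsoAlloLCA and 42.4 to 47.4 CPM with IsoLCA. Most of that was Zbtb7b. In bulk RNA, fewer cells of a type and less RNA per cell cannot be told apart. The part of other cells in the results was not tested.

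The epimers differed across much of the transcriptome. Of 13044 tested genes, 7802 (59.8%) passed the edgeR quasi-likelihood test at a Benjamini-Hochberg adjusted p under 0.05. Of these, 4136 (31.7% of tested genes) were higher with IsoAlloLCA than with IsoLCA and 3666 (28.1%) were lower. With counts corrected for GC content and transcript length, an alternative chosen after seeing the data, 3091 were higher and 5011 lower, 8102 in all. DESeq2 called 3594 higher and 3777 lower, so the balance of directions depended on the processing. Large differences were mostly upward: 618 genes (4.74%) were more than 2-fold higher and 83 (0.636%) more than 2-fold lower, and among genes reaching 10 CPM in a group these numbers were 176 and 15. The 2-fold higher genes were weakly expressed, with a median of 0.992 CPM with IsoLCA and 2.90 CPM with IsoAlloLCA. Conversely, for 3789 genes (29% of tested genes) the 95% interval of the fold change lay within 1.2-fold, so a larger difference between the epimers lay outside the interval for these genes. Against control, 7618 genes (58.4%) were called with IsoAlloLCA and 1284 (9.84%) with IsoLCA. These comparisons share the control libraries, and their values are set side by side below.

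**Figure D1:**
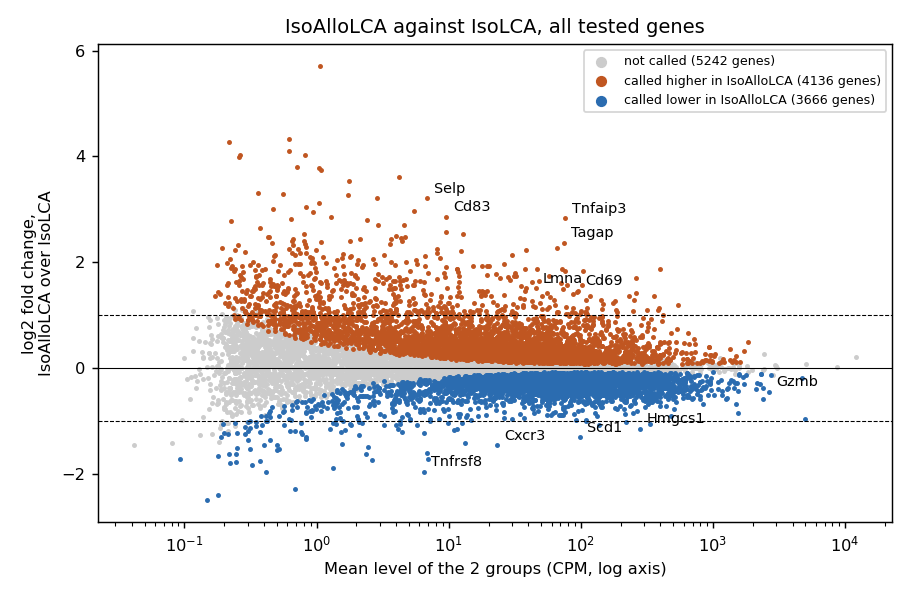
Log2 fold change, IsoAlloLCA over IsoLCA, of the 13044 tested genes against their mean level in the 2 groups (CPM, log axis), with 3 libraries a group. Orange points are called higher, blue points called lower and grey points not called, and the dashed lines mark 2-fold. More orange than blue points lie beyond 2-fold, many of them at low levels.

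Genes were ranked by fold change among those called, with an established symbol, at least 10 CPM in a group and no overlap between the 3 and 3 libraries, a separation seen in 58.8% of all tested genes (30.7% higher and 28% lower). This left 5446 genes, and coordinates are those of mm10. The largest rise was that of Selp, which encodes the adhesion receptor P-selectin (chromosome 1, 164115264 to 164150026, plus strand). Its level was 10.5, 13.9 and 12.6 CPM in the IsoAlloLCA libraries, 1.37, 1.37 and 1.26 CPM in the IsoLCA libraries and 4.89, 4.62 and 4.14 CPM in control. The epimers thus lay on opposite sides of control, and the log2 fold change between them was 3.21 ± 0.14 (SE, n = 3 and 3, adjusted p = 1.29e-15). Here and below, values in brackets without a unit are log2 fold changes ± SE of IsoAlloLCA over IsoLCA unless control is named, means in CPM are ± SD (n = 3), and IsoAlloLCA stands first where levels are set against each other. Cd83, a surface marker of activated lymphocytes and dendritic cells (chromosome 13, 43785112 to 43803133, plus strand), reached 15.8, 20.3 and 13.8 CPM with IsoAlloLCA against 2.74, 2.10 and 2.07 CPM with IsoLCA, which was close to the 1.83, 2.57 and 1.77 CPM of control (2.86 ± 0.14, adjusted p = 2.13e-14). Tnfaip3, which encodes the NF-kB inhibitor A20 (chromosome 10, 19000910 to 19015410, minus strand), stood at 118, 169.6 and 113 CPM against 17.7, 19.8 and 18.8 CPM, 7.13-fold higher (2.83 ± 0.12, adjusted p = 8.81e-16). The next ranks went to Rgs2, a G protein signalling regulator (2.57 ± 0.16), Tnfsf4, which encodes OX40 ligand (2.53 ± 0.10), Tagap (2.36 ± 0.09), the integrin gene Itgb3 (2.27 ± 0.11), the granzyme gene Gzmd (2.24 ± 0.20), Klhl24 (2.24 ± 0.13), Gucy1a3 (2.20 ± 0.11), the sugar transporter gene Slc2a6 (2.17 ± 0.13) and the adenylate kinase gene Ak1 (2.11 ± 0.14). In each of these 12 genes every IsoAlloLCA library was above the other 21 libraries of the series, a position held by 2355 tested genes (18.1%).

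Falls were smaller. Tnfrsf8, which encodes the costimulatory receptor CD30 (chromosome 4, 145268976 to 145315147, minus strand), was at 2.66, 2.11 and 3.31 CPM with IsoAlloLCA, 10.4, 8.67 and 11.9 CPM with IsoLCA and 16.1, 18.5 and 18.2 CPM in control. All 3 IsoAlloLCA libraries were below every IsoLCA library (-1.97 ± 0.14, adjusted p = 1.29e-11). Fhl2, a LIM domain cofactor (-1.73 ± 0.09), and Mical2, an enzyme that oxidises actin (-1.61 ± 0.14), came next. Cxcr3, the receptor that guides effector T cells to inflamed tissue (chromosome X, 101731535 to 101734147, minus strand), was at 12.4, 11.3 and 13.5 CPM against 32.2, 38.3 and 31.6 CPM, 2.75-fold lower (-1.46 ± 0.10, adjusted p = 4.73e-12), while IsoLCA stood near control (33.2, 29.2 and 35.3 CPM). The other largest falls were in Enah, an actin regulator (-1.41 ± 0.12), Scd1 (-1.31 ± 0.11), the semaphorin gene Sema7a (-1.18 ± 0.11), Prr5, a component of the mTOR complex that phosphorylates Akt (-1.16 ± 0.14), the cholesterol genes Hmgcs1 and Fdps, the tubulin gene Tuba4a (-1.06 ± 0.05) and the thrombin-type receptor gene F2rl2 (-1.05 ± 0.11). In 11 of these 12, Scd1 being the exception, the IsoAlloLCA libraries were below the other 21, as in 2217 tested genes (17%).

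**Figure D2:**
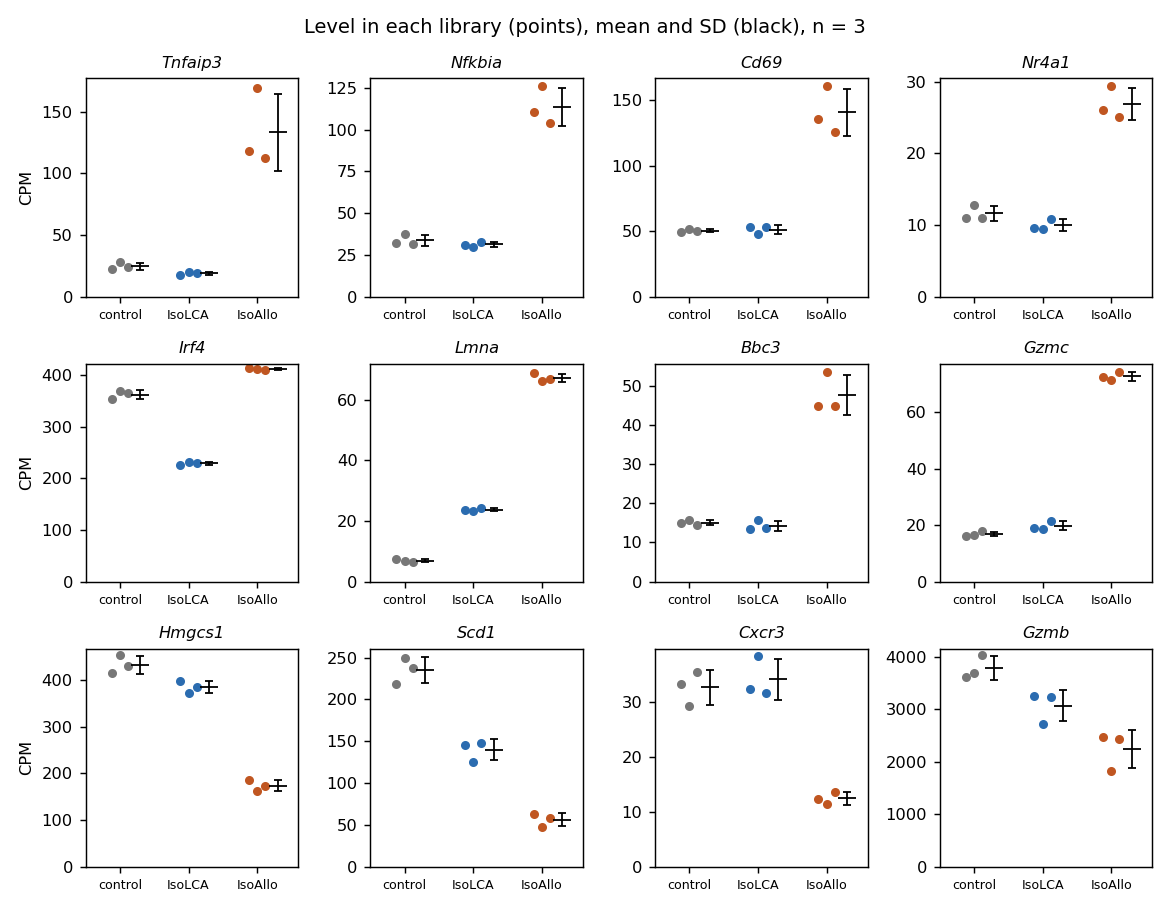
Level of 12 genes (CPM, linear axes from 0) in the libraries of control, IsoLCA and IsoAlloLCA (points, 3 a group), with the mean and SD in black. Tnfaip3, Nfkbia, Cd69, Nr4a1, Bbc3 and Gzmc are high with IsoAlloLCA and at or near control with IsoLCA, Irf4 with the epimers lies on either side of control, Lmna is above control with both acids, and Hmgcs1, Scd1, Cxcr3 and Gzmb are lowest with IsoAlloLCA.

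Between the epimers 31.7% of all tested genes were higher and 28.1% lower, and each list count below stands beside these shares. Genes of NF-kB signalling were higher with IsoAlloLCA. In the list of NF-kB subunits and feedback genes, 13 of 17 tested members were higher, 2 lower and 2 not called, with a median log2 fold change of 0.87 beside 0.03 over all tested genes. Against control, 12 members were higher and 2 lower with IsoAlloLCA, beside 30.6% and 27.8% of all tested genes. With IsoLCA, 3 were lower and the other 14 did not pass, beside 3.73% of tested genes higher and 6.12% lower. The inhibitors that end the response led the list. Nfkbia, which encodes the inhibitor I kappa B alpha, was at 111, 126 and 104 CPM with IsoAlloLCA and 30.7, 29.9 and 32.9 CPM with IsoLCA (1.86 ± 0.07, adjusted p = 1.69e-16). Control libraries were at 31.9, 37.6 and 31.7 CPM, close to IsoLCA, and the IsoAlloLCA libraries were all more than 3 times as high as any of these IsoLCA libraries. A further inhibitor was Nfkbie (1.09 ± 0.06). Nfkbiz, which encodes a nuclear I kappa B protein (1.44 ± 0.16), and Ikbke, an I kappa B kinase (1.18 ± 0.10), were higher as well. Among the subunits, Relb (49.8 ± 6.29 against 14.9 ± 0.435 CPM, 1.74 ± 0.08) and Nfkb2 (155 ± 16.2 against 63.6 ± 1.76 CPM, 1.29 ± 0.06) of the noncanonical pathway were higher. Nfkb1, of the canonical pathway, was lower (436 ± 20.2 against 478 ± 13.8 CPM, -0.13 ± 0.04), a call that was lost with the exon share as a covariate (adjusted p = 0.454). Traf3, an adaptor that restrains the noncanonical pathway, was also lower (-0.14 ± 0.04).

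**Figure D3:**
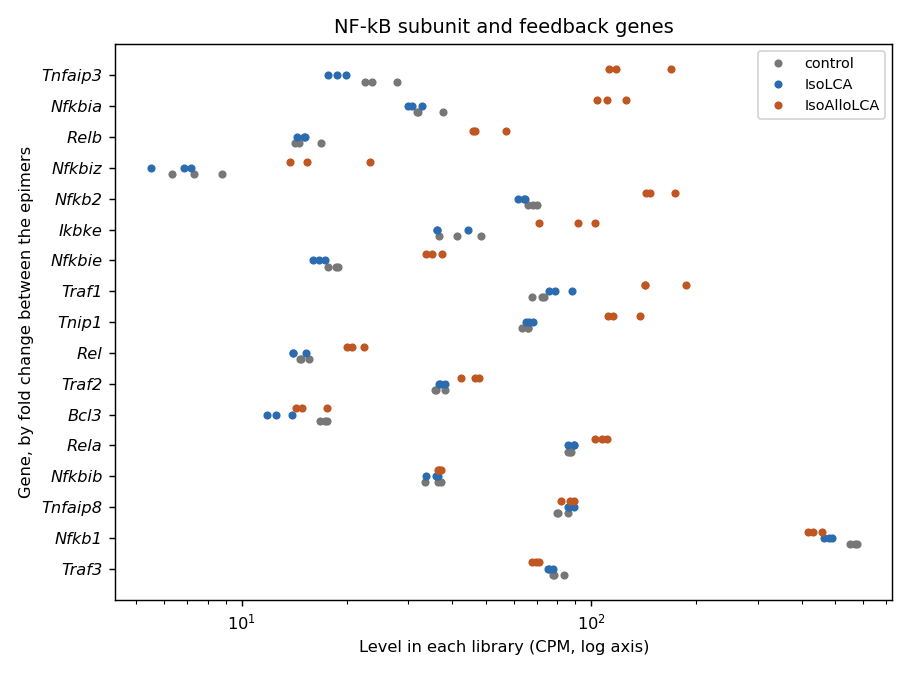
Level in each library (CPM, log axis) of the 17 tested NF-kB subunit and feedback genes, ordered by the fold change between the epimers, for control (grey), IsoLCA (blue) and IsoAlloLCA (orange), 3 libraries each. In the upper rows the orange points stand apart to the right, and the blue and grey points lie together.

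The Nfkbia promoter is shown because this gene had the smallest adjusted p of its list and holds a kappa B match, a search added after the values were seen. The sequence is the 250 bases before the start site from RefSeq (GRCm38.p6, chr12:55492648-55492897, minus strand), with the match in capitals.
Nfkbia: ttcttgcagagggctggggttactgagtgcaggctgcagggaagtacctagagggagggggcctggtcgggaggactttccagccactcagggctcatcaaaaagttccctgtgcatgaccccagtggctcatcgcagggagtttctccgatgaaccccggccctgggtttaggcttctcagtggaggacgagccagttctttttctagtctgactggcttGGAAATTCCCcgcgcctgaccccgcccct
The letters searched were GGGA, any base and then TTTCC, on both strands of promoters of 300 bases (250 before to 50 after the start). The motif was in 2 of the 13 list members with a promoter entry, Nfkbia and Nfkb2, and in 0.411% of all 32851 promoters. A match is a description of these letters, not a sign of binding.

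Genes that the T cell receptor induces within hours of a signal were higher with IsoAlloLCA as well: 18 of 27 tested members were higher and 2 lower, with a median of 0.84. Against control, 16 were higher and 5 lower with IsoAlloLCA, beside 30.6% and 27.8% of all tested genes. With IsoLCA 11 were lower, beside 6.12% of all tested genes. Cd69, which encodes an early activation antigen that holds cells in tissue (chromosome 6, 129267325 to 129275369, minus strand), was at 135, 161 and 125 CPM with IsoAlloLCA, 52.9, 47.4 and 53 CPM with IsoLCA and 49.2, 51.6 and 49.7 CPM in control (1.46 ± 0.06, adjusted p = 1.37e-15). The orphan receptor gene Nr4a1, a reporter of receptor signalling (chromosome 15, 101266846 to 101274794, plus strand), was at 26.1, 29.4 and 25.1 CPM against 9.58, 9.49 and 10.9 CPM (1.43 ± 0.07, adjusted p = 2.15e-14). In both genes the 3 IsoAlloLCA libraries were above the 3 IsoLCA libraries, which lay close to control. Nr4a2 (1.40 ± 0.11) and Nr4a3 (1.07 ± 0.07) of the same family and the zinc finger genes Egr1 (1.72 ± 0.10) and Egr2 (1.64 ± 0.17) were also higher. Irf4, a dose-dependent driver of effector differentiation, was at 412, 410.5 and 409.9 CPM with IsoAlloLCA, 226, 231 and 229.8 CPM with IsoLCA and 352, 368 and 365 CPM in control, so the epimers lay on either side of control (0.84 ± 0.04, adjusted p = 2.13e-15). The exceptions were Zbtb32 (-0.36 ± 0.05) and the NFAT gene Nfatc1 (-0.15 ± 0.04), both lower, and for Il2ra, the high-affinity interleukin 2 receptor chain, no difference was called (1774 ± 164 against 1879 ± 209.8 CPM, -0.08 ± 0.08, adjusted p = 0.352). Il2ra was lower without the second IsoLCA library (adjusted p = 0.0433) and with the GC content and length correction (0.0413), under which 6 members of the list were lower. Without the second IsoLCA library 4 were lower.

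Of the AP-1 family 7 of 15 members were higher and 3 lower, a share called of 66.7%, near the 59.8% of all tested genes. Among the 11 members with a mean of at least 5 CPM, 5 were higher and 3 lower. The median went from 0.44 to 0.16. Fos was at 5.96, 9.72 and 6.51 CPM against 1.03, 1.52 and 1.48 CPM (2.46 ± 0.22), and Jun at 36.1, 51.6 and 38.2 CPM against 11, 10.6 and 10.8 CPM (1.96 ± 0.10, adjusted p = 4.88e-14). Jun had 23.1, 26.6 and 21.9 CPM in control, between the 2 acids. Junb (0.74 ± 0.06), Atf3 (1.15 ± 0.12) and Bach2, a repressor that competes for AP-1 sites and keeps T cells in a memory state (1.5 ± 0.08), were higher, whereas Jund (-0.47 ± 0.06), Mafk (-0.31 ± 0.06) and Batf3 (-0.23 ± 0.09) were lower. The call of Batf3 was lost in 6 alternatives, among them the exon share as a covariate (adjusted p = 0.127) and the fit without the third IsoLCA library (0.222). The AP-1 letters TGANTCA were in 2 of the 18 receptor-induced genes with a promoter entry (Tnfrsf9 and Rcan1), beside 7.81% of all promoters. Of the ERK phosphatases, Sprouty genes and Ets factors that ERK signalling induces, 13 of 16 were higher and 3 were not called (median 0.45). They include the phosphatase genes Dusp4 (0.89 ± 0.07), Dusp6 (0.43 ± 0.06) and Dusp16 (0.89 ± 0.05). Etv4 (4.83 ± 0.571 against 1.56 ± 0.502 CPM, 1.6 ± 0.19) and Etv5 (8.04 ± 0.4 against 2.68 ± 0.607 CPM, 1.58 ± 0.20) were higher too. For Etv5 this difference came with a fall against control with IsoLCA (-1.23 ± 0.20), while IsoAlloLCA did not pass against control (0.35 ± 0.18, adjusted p = 0.0951).

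Death-promoting and p53-responsive genes were mostly higher with IsoAlloLCA: 21 of 31 tested members were higher, 13 of these by more than 2-fold, 4 were lower and 6 not called (median 0.64). Against control, 22 were higher and 5 lower with IsoAlloLCA, beside 30.6% and 27.8% of all tested genes. With IsoLCA 1 was higher and 3 lower, beside 3.73% and 6.12% of all tested genes. Bbc3, which encodes the BH3-only killer PUMA (chromosome 7, 16309583 to 16318334, plus strand), was at 44.7, 53.6 and 44.7 CPM against 13.5, 15.8 and 13.6 CPM (1.74 ± 0.08, adjusted p = 3.92e-15). Bcl2l11, which encodes BIM (chromosome 2, 128126038 to 128162547, plus strand), was at 137, 176 and 147 CPM against 50.0, 56.5 and 48.5 CPM (1.57 ± 0.09, adjusted p = 8.87e-14). For both, IsoLCA libraries were at control level (14.9, 15.7 and 14.5 CPM for Bbc3) and IsoAlloLCA libraries about 3 times as high. Pmaip1, another BH3-only gene (1.15 ± 0.05), Trp53inp1 (399 ± 15.8 against 123 ± 21.3 CPM, 1.70 ± 0.09), the death receptor gene Fas (1.38 ± 0.07), Plk2 (1.86 ± 0.11), the antiproliferative gene Btg2 (1.61 ± 0.11), the cell cycle inhibitor gene Cdkn1a (253 ± 18.7 against 122 ± 10.2 CPM, 1.05 ± 0.07) and Mdm2 (0.64 ± 0.04) were higher. Trp53 itself was not called (-0.06 ± 0.04, adjusted p = 0.157). The members that were lower include Bak1 (-0.37 ± 0.04), Bid (-0.42 ± 0.07) and Tigar (-0.51 ± 0.07). With the GC content and length correction 7 members were lower, and Trp53 was then lower too (-0.12, adjusted p = 0.0135).

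Survival genes moved in the same samples. Of the BCL2 family and IAP survival list 10 of 15 were higher and 2 lower (median 0.42), with Birc3 (0.99 ± 0.05), Birc2 (0.77 ± 0.07) and Mcl1 (0.42 ± 0.03) higher and Bcl2l1, which encodes BCL-XL, lower (-0.39 ± 0.07). Leaving out the first or second library of either acid left 1 member lower. Bcl2 was at 692, 658 and 685 CPM against 682, 615 and 707 CPM, with a 95% interval of the log2 fold change of -0.08 to 0.13, and it was called lower with the GC content and length correction (-0.13, adjusted p = 0.0429). Targets of the FOXO factors, which Akt signalling holds in check, were mostly higher: 19 of 22 were higher and 2 lower, with a median of 0.80. They include Irs2, an insulin receptor adaptor (15 ± 3.29 against 4.05 ± 0.702 CPM, 1.90 ± 0.13), Pik3ip1, an inhibitor of PI3 kinase (1.67 ± 0.11), Ccng2 (1.57 ± 0.12), the cell cycle inhibitor gene Cdkn1b (1.03 ± 0.09) and Txnip, which restrains glucose uptake (0.81 ± 0.07). Cited2 (-0.30 ± 0.07) and Foxo4 (-0.15 ± 0.05) were lower, and the call of Foxo4 was lost without the first IsoAlloLCA library (adjusted p = 0.103), which left 1 member lower. Of the other factors, Foxo3 was higher (0.63 ± 0.05) and Foxo1 was not called (0.06 ± 0.05, adjusted p = 0.296). The list shares Bcl2l11 with the apoptosis list and, among others, Ccr7, Klf2, S1pr1 and Il7r with the naive and memory list, so these counts are not independent.

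Genes of naive and memory T cells were higher with IsoAlloLCA: 17 of 25 members were higher and 4 lower, with a median of 0.66. Against control, 14 were higher and 8 lower with IsoAlloLCA, beside 30.6% and 27.8% of all tested genes. With IsoLCA 2 were higher and 12 lower, beside 3.73% and 6.12% of all tested genes. Il7r, the survival receptor of resting T cells (chromosome 15, 9506159 to 9529876, minus strand), was at 229.6, 267 and 241 CPM against 104, 104 and 109 CPM (1.22 ± 0.05, adjusted p = 1.39e-15). Tcf7, which encodes the stemness factor TCF1 (chromosome 11, 52252283 to 52283014, minus strand), was at 327, 383 and 305 CPM against 151, 195 and 135 CPM (1.08 ± 0.13, adjusted p = 1.16e-07). In these genes the groups did not overlap, and for Tcf7 the IsoLCA libraries were also all above control (121, 116 and 118 CPM). The homing receptor gene Ccr7 (1.10 ± 0.08), Klf2, which drives genes of tissue exit (1.16 ± 0.15), S1pr1 (0.79 ± 0.15), Slamf6 (1.16 ± 0.07), Cxcr4 (1.05 ± 0.07), Satb1 (0.66 ± 0.04) and the costimulatory receptor gene Cd27 (0.74 ± 0.09) were higher. Id3 (-0.64 ± 0.06) and the integrin gene Itgb7 (-0.34 ± 0.05) were lower, beside Cxcr3.

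Inhibitory receptors and exhaustion genes were higher for 13 of 20 members and lower for 3 (median 0.58). Ctla4, which competes with CD28 for its ligands, was at 507, 592 and 519 CPM with IsoAlloLCA, 245, 262 and 235 CPM with IsoLCA and 328, 355 and 326 CPM in control (1.13 ± 0.06, adjusted p = 3.47e-14). Tigit (1.26 ± 0.08), Lag3 (0.96 ± 0.07), Pdcd1, which encodes PD-1 (34.1 ± 2.01 against 21 ± 1.48 CPM, 0.70 ± 0.09), and Havcr2, which encodes TIM-3 (0.66 ± 0.08), were higher, and Cd244 (-0.62 ± 0.09) and Cd160 (-0.44 ± 0.10) were lower, the latter not with the exon share as a covariate (adjusted p = 0.166). Tox, the factor that establishes exhaustion, had 29.4, 26.1 and 27.5 CPM with IsoAlloLCA and 27.7, 27.1 and 29.0 CPM with IsoLCA, both above the 17.2, 17.9 and 17.6 CPM of control. The epimers did not differ by more than the spread for Tox, with a 95% interval of the log2 fold change of -0.14 to 0.11. Of the TNF superfamily list, 12 of 19 members were higher and 3 lower, with Tnfrsf9, which encodes 4-1BB (559 ± 37.4 against 281 ± 41.9 CPM, 0.99 ± 0.09), Tnfrsf4, which encodes OX40 (0.87 ± 0.08), Tnfrsf18 (0.80 ± 0.06) and Cd28 (0.92 ± 0.08) higher, and Tnfsf10, which encodes TRAIL (-0.83 ± 0.08), and Tnfrsf1b (-0.51 ± 0.05) lower beside Tnfrsf8.

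Because IsoAlloLCA is known for its action on regulatory T cells, their genes were listed too. Of 22 tested members 13 were higher and 2 lower (median 0.28). Foxp3, the factor that defines these cells (chromosome X, 7579676 to 7595243, plus strand), was at 9.76, 9.98 and 11.1 CPM with IsoAlloLCA, 9.21, 8.28 and 8.60 CPM with IsoLCA and 8.61, 8.52 and 9.09 CPM in control. The IsoAlloLCA libraries were the highest but the difference was small (0.24 ± 0.07, adjusted p = 0.00589), and the call was lost with the GC content and length correction (adjusted p = 0.107). Ikzf2, which encodes Helios, differed more (48.9 ± 11.5 against 14.1 ± 1.15 CPM, 1.80 ± 0.10), as did Ctla4 and Smad3 (0.53 ± 0.08). Tgfb1 (-0.23 ± 0.05) and Izumo1r, a folate receptor family gene of these cells (-0.63 ± 0.14), were lower. The CD4 gene itself was near 0 (0.969 ± 0.188 against 0.489 ± 0.132 CPM, 0.98 ± 0.25). Zbtb7b, also of the CD4 T cell marker list, was at 44.1 against 43.6 CPM and not called (0.01 ± 0.05).

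Cytotoxic genes divided by family member: 13 of 24 were higher and 6 lower, with a median of 0.26. Of all tested genes 31.7% were higher and 28.1% lower. Among the 17 members with a mean of at least 5 CPM, 8 were higher and 4 lower, with a median of 0.05. With the exon share as a covariate 14 were higher and 3 lower. Gzmb, the main granzyme of these cells (chromosome 14, 56258836 to 56262334, minus strand), was at 2473, 1832 and 2430.2 CPM with IsoAlloLCA, 3256, 2729 and 3226 CPM with IsoLCA and 3611, 3696 and 4045 CPM in control. Every IsoAlloLCA library was below every IsoLCA library, 1.37-fold on average (-0.45 ± 0.09, adjusted p = 6.8e-05), and the call was lost with the exon share as a covariate (adjusted p = 0.0601). The neighbouring granzyme genes went the other way: Gzmc (chromosome 14, 56231401 to 56234657, minus strand) was at 72.6, 71.3 and 74.4 CPM against 19.1, 18.6 and 21.6 CPM (1.88 ± 0.06, adjusted p = 3.76e-17), and Gzmd, Gzme (1.95 ± 0.18) and Gzmg (2.08 ± 0.33) were higher at low levels. These granzymes are close paralogs, so reads may have been divided between them. Prf1, which encodes perforin, was not called (19.6 ± 0.728 against 21.3 ± 3.39 CPM, -0.13 ± 0.11, adjusted p = 0.32). The transcription factor genes Tbx21, which encodes T-bet (26.4 ± 1.25 against 37.8 ± 2.34 CPM, -0.52 ± 0.06), Eomes (14.6 ± 0.988 against 23 ± 3.08 CPM, -0.66 ± 0.08) and Id2 (-0.51 ± 0.05) were lower. The activating receptor gene Klrk1, which encodes NKG2D (0.64 ± 0.04), and the granzyme inhibitor gene Serpinb6b (1.64 ± 0.09) were higher.

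Of the cytokine and chemokine genes 8 of 17 were higher and 5 lower (median 0.35). Among the 8 members with a mean of at least 5 CPM, 3 were higher and 5 lower (median -0.40). With the exon share as a covariate 5 were higher and 5 lower. Without the second IsoAlloLCA library 5 were called higher, which puts the list near the 31.7% and 28.1% of all tested genes. Csf1 (10.5 ± 0.945 against 2.74 ± 0.273 CPM, 1.94 ± 0.11), the chemokine gene Ccl5 (1.45 ± 0.12) and Ltb (0.58 ± 0.04) were higher. Lta (154 ± 20.6 against 279 ± 41.6 CPM, -0.86 ± 0.11), Osm (-0.81 ± 0.07), Tnf (-0.62 ± 0.07) and Lif (-0.87 ± 0.15) were lower. Lta and Tnf, neighbours on chromosome 17, stood above control with IsoLCA (0.49 ± 0.11 and 0.36 ± 0.07) and below it with IsoAlloLCA (-0.38 ± 0.11 and -0.26 ± 0.07). Ifng was low in both groups (4.01 ± 0.9 against 2.59 ± 0.525 CPM, 0.64 ± 0.19, adjusted p = 0.00538), and its call was lost without the second IsoAlloLCA library (adjusted p = 0.0734). Cytokine receptor genes were higher for 16 of 25 members and lower for 3, or 5 without the second IsoLCA library or with the GC content and length correction. Ifngr1, the interferon gamma receptor chain that binds the cytokine, was at 346, 391 and 346 CPM with IsoAlloLCA, 151, 157 and 136 CPM with IsoLCA and 244, 242 and 233 CPM in control, again on either side of control (1.29 ± 0.06, adjusted p = 4.93e-15). The interleukin 12 receptor chains went opposite ways, with Il12rb2 higher (0.77 ± 0.05) and Il12rb1 lower (-0.65 ± 0.05). Of the JAK-STAT genes, 7 of 19 were higher, among them Stat4 (0.89 ± 0.06), and 7 lower, among them the feedback inhibitor gene Cish (-0.50 ± 0.06) and Stat5a (-0.29 ± 0.04). These shares lie close to the 31.7% higher and 28.1% lower of all tested genes. With the GC content and length correction 4 were higher and 11 lower.

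Cholesterol synthesis was the list with the lowest median. Of 31 tested members 23 were lower with IsoAlloLCA, 4 higher and 4 not called, with a median log2 fold change of -0.66. Against control, 24 were lower and 4 higher with IsoAlloLCA, and 14 were lower and 1 higher with IsoLCA, with medians of -0.86 and -0.15. Of all tested genes, 27.8% were lower and 30.6% higher with IsoAlloLCA, and 6.12% lower and 3.73% higher with IsoLCA. The direction held along the pathway: of the 18 enzymes plotted, Tm7sf2 alone was not called lower. Hmgcs1, the synthase that makes HMG-CoA (chromosome 13, 119690351 to 119708260, plus strand), was at 187, 163 and 172 CPM with IsoAlloLCA, 399, 372 and 384 CPM with IsoLCA and 415, 452 and 430.4 CPM in control. The IsoAlloLCA libraries were all under those of both other groups, and the epimers were 2.21-fold apart (-1.15 ± 0.06, adjusted p = 4.11e-14). The farnesyl diphosphate synthase gene Fdps was at 97.0, 82.1 and 86.4 CPM against 194, 179 and 191 CPM (-1.09 ± 0.06, adjusted p = 8.24e-14). Idi1 (-0.98 ± 0.07), the squalene epoxidase gene Sqle (-0.92 ± 0.06), the cyclase gene Lss (-1.01 ± 0.06) and the demethylase gene Cyp51 (-1.03 ± 0.07) were lower.

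Outside the enzymes, Srebf2, which encodes the transcription factor that drives the pathway, was only slightly lower (367 ± 16.9 against 413 ± 2.6 CPM, -0.17 ± 0.03). Insig1, a sterol-sensing retention factor and itself a target of that factor, was lower (-0.81 ± 0.07), whereas Insig2 was higher (0.45 ± 0.07). The lysosomal cholesterol exporters Npc1 (0.38 ± 0.04) and Npc2 (0.44 ± 0.04) were higher.

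**Figure D4:**
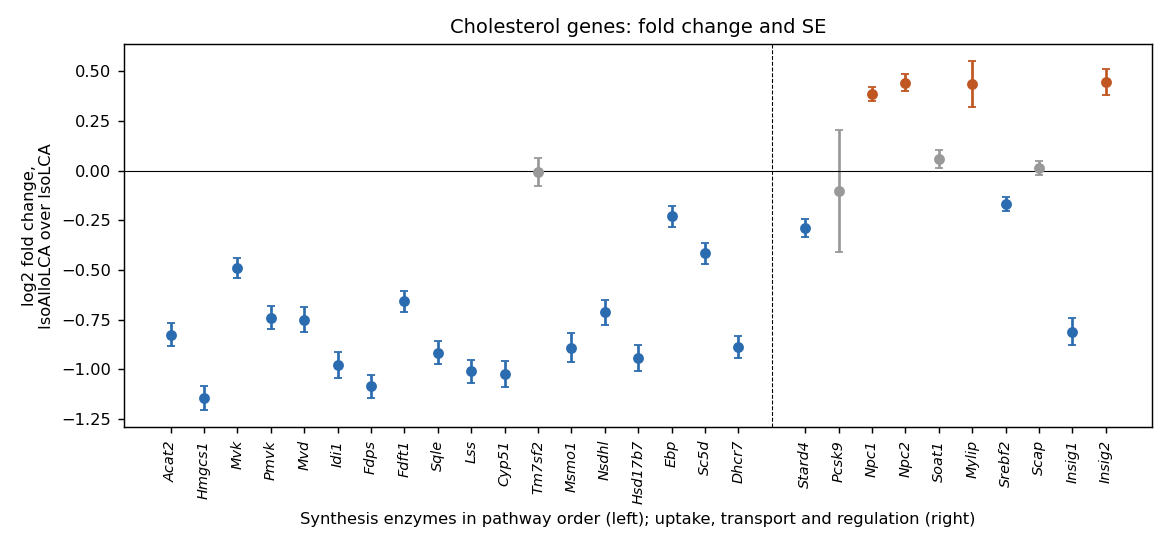
Log2 fold change, IsoAlloLCA over IsoLCA (points, bars are the SE, 3 libraries a group), of 18 cholesterol synthesis enzymes in pathway order and of 10 uptake, transport and regulatory genes. Blue is called lower, orange higher and grey not called. Every plotted enzyme but Tm7sf2 is called lower, and Npc1, Npc2, Mylip and Insig2 lie above it.

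Promoters of a few of these enzymes are shown because the members move together. Each is the 250 bases before the start site from RefSeq (GRCm38.p6), with capitals on matches to the sterol response element core TCACNCCAC or to the CCAAT box, which reads ATTGG on the other strand. Hmgcs1 lies at chr13:119690101-119690350 (plus strand), Lss at chr10:76531355-76531604 (plus strand) and Cyp51 at chr5:4104698-4104947 (minus strand).
Hmgcs1: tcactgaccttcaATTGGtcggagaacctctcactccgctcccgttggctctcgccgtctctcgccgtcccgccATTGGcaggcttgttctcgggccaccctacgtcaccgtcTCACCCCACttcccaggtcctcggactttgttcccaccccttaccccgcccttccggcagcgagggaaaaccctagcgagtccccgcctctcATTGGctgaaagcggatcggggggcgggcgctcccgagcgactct
Lss: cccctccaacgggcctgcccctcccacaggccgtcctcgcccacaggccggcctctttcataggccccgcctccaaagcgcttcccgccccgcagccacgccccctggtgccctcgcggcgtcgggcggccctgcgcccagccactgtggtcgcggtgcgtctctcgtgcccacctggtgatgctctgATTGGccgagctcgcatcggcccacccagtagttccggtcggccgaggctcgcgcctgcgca
Cyp51: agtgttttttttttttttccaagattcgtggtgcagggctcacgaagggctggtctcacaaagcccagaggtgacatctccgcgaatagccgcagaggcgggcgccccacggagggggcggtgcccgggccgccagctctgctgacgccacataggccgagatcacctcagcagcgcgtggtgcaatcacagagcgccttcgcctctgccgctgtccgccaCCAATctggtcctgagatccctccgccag
Hmgcs1 held 1 match to the sterol response element core and 3 CCAAT boxes in this window, and Lss and Cyp51 held 1 CCAAT box each. Over promoters of 300 bases, searched on both strands, the core was in 1 of the 22 list members with an entry, beside 1.24% of all 32851 promoters. CCAAT was in 20 of the 22, beside 37.4% of all promoters and 43.0% of the promoters of tested genes. The matches printed for Hmgcs1 do not overlap one another. A match is not a site or a cause, and a missing match says only that these letters are not in the window.

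Fatty acid synthesis followed in part, with 11 of 20 members lower and 3 higher (median -0.20). Without the third IsoLCA library, with only the compared libraries and with the GC content and length correction, 1 was higher. The stearoyl-CoA desaturase gene Scd1 (chromosome 19, 44394450 to 44407709, minus strand) was at 63.2, 47.7 and 58.6 CPM with IsoAlloLCA, 146, 126 and 148 CPM with IsoLCA and 219, 249 and 238 CPM in control, an ascending order with no overlap (-1.31 ± 0.11, adjusted p = 1.23e-10). The other 50 µM acids ranged from 62.2 to 157 CPM. Fads2 (-0.84 ± 0.07) and the ATP citrate lyase gene Acly (308 ± 26.3 against 479 ± 17.9 CPM, -0.64 ± 0.05) were lower, and the regulator gene Srebf1 was not called (168 ± 4.81 against 169 ± 8.72 CPM, 95% interval -0.09 to 0.07) except with the GC content and length correction (-0.14, adjusted p = 0.00131). Of the liver X receptor targets, 6 of 14 were higher and 2 lower, a share called of 57.1%, near the 59.8% of all tested genes. The number lower was 4 with the exon share as a covariate and with the GC content and length correction. Among the 8 members with a mean of at least 5 CPM, 3 were higher and 2 lower. Abcg1, a sterol exporter, was at 29.4, 33.2 and 30.9 CPM with IsoAlloLCA and 14.8, 14.8 and 15.1 CPM with IsoLCA, and control stood at 27.0, 27.9 and 27.8 CPM. Here it was IsoLCA that departed from control (-0.89 ± 0.08), and IsoAlloLCA did not pass against it (0.18 ± 0.08). Abca1 was higher at a low level (1.57 ± 0.236 against 0.661 ± 0.0573 CPM, 1.24 ± 0.21). Sphingolipid and phospholipid genes were higher for 14 of 25 members and lower for 4, led by the glucosylceramide synthase gene Ugcg, at 395, 394 and 386 CPM against 207, 204 and 198 CPM (0.95 ± 0.03, adjusted p = 5.98e-17).

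Genes of DNA replication, ribosome assembly and protein breakdown were lower with IsoAlloLCA by modest amounts. Of the S phase genes 35 of 38 were lower and 3 not called (median -0.32). With the exon share as a covariate 31 were lower and 0 higher (median -0.21). The replicative helicase gene Mcm2 was at 287, 249 and 276 CPM against 418, 409 and 425 CPM (-0.63 ± 0.04, adjusted p = 9.73e-13), and Uhrf1 (-0.44 ± 0.03) and Chaf1a (-0.44 ± 0.03) were lower as well. Of the Myc and ribosome biogenesis genes 30 of 32 were lower (median -0.57), including the nucleolar genes Ncl (1904 ± 163 against 2850.4 ± 227 CPM, -0.58 ± 0.06), Nop58 (-0.75 ± 0.05) and Nolc1 (-0.81 ± 0.06). Myc itself was not called (357 ± 12.7 against 386 ± 45.9 CPM, -0.11 ± 0.07, adjusted p = 0.146), although it was lower without the second IsoLCA library (-0.20, adjusted p = 0.00754) and with the GC content and length correction (-0.17, 0.0421). Of the proteasome subunit genes 29 of 31 were lower (median -0.31), such as Psmd3 (-0.51 ± 0.04) and Psmd7 (-0.56 ± 0.05). With the exon share as a covariate 21 were lower and 1 higher, with a smaller median of -0.14.

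Mitotic genes divided more. Of 33 members 19 were lower, such as Plk1 (-0.47 ± 0.03) and Aurka (-0.40 ± 0.03), and 3 were higher, among them Cenpa (0.26 ± 0.04), and with the exon share as a covariate the counts were 11 and 8. Without the second IsoAlloLCA library 5 were higher. The proliferation marker gene Mki67 was at 1513, 1587 and 1632 CPM with IsoAlloLCA and 1469, 1695 and 1604 CPM with IsoLCA, with overlapping libraries and a 95% interval of the log2 fold change of -0.12 to 0.10. It was lower with the GC content and length correction (-0.20, adjusted p = 3.46e-05). The cyclin gene Ccnd3 (-0.69 ± 0.05), E2f4 (-0.59 ± 0.04) and E2f8 (-0.55 ± 0.04) were lower and Rbl2, a pocket protein of resting cells, was higher (0.52 ± 0.04). Respiratory chain subunits, 35 of 76 lower and 4 higher, turned to 13 lower and 20 higher with the exon share as a covariate. Without the second IsoAlloLCA library 23 were lower. Ribosomal protein genes, 25 of 75 higher and 3 lower, turned to 2 higher and 16 lower with the GC content and length correction and to 50 higher with the exon share as a covariate. The 25 fell to 10 without the second IsoLCA library, to 13 without the first or the second IsoAlloLCA library and with DESeq2, and to 9 with only the compared libraries. Of the 75 tested members 73 had intervals within 1.2-fold. For either list the direction thus depends on the processing.

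The integrated stress response, through which ATF4 raises amino acid supply, was lower with IsoAlloLCA for 30 of 44 members and higher for 6 (median -0.45). Against control 33 were lower with IsoAlloLCA and 5 with IsoLCA, beside 27.8% and 6.12% of all tested genes. Slc7a5, a chain of the leucine transporter, was at 347, 308 and 343 CPM with IsoAlloLCA and 632, 563 and 687 CPM with IsoLCA (-0.92 ± 0.06, adjusted p = 2.71e-12). Atf4 (337 ± 5.60 against 454 ± 40.5 CPM, -0.43 ± 0.05), the amino acid synthesis genes Asns (-0.59 ± 0.06), Psat1 (-0.64 ± 0.04) and Aldh18a1 (-0.76 ± 0.05), the tRNA synthetase genes Aars (-0.62 ± 0.03) and Yars (-0.71 ± 0.05) and Trib3 (-0.50 ± 0.08) were lower. The exceptions are regulators induced by stress: Atf3, Ddit3, which encodes CHOP (23.9 ± 4.04 against 14.5 ± 1.94 CPM, 0.72 ± 0.09), and Ddit4, an inhibitor of mTOR signalling (0.53 ± 0.04), together with the transporter gene Slc38a2 (0.32 ± 0.04). Endoplasmic reticulum folding genes were split, 10 higher and 12 lower of 26, with the sensor genes Eif2ak3 (1.07 ± 0.06) and Atf6 (0.54 ± 0.04) higher and Xbp1 (-0.54 ± 0.06) and Hyou1 (-0.27 ± 0.04) lower. With the exon share as a covariate, 5 were lower.

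Heat shock genes were lower for 15 of 22 members and higher for 3 (median -0.26). The abundant chaperones Hsp90aa1 (1001 ± 113 against 1511 ± 95.4 CPM, -0.59 ± 0.06), Hspa8 (-0.39 ± 0.04) and Hsph1 (-0.64 ± 0.04) were lower. The paralogs Hspa1a and Hspa1b went the other way at low levels. Hspa1a was at 4.14, 7.18 and 4.2 CPM with IsoAlloLCA against 0.486, 0.578 and 0.616 CPM with IsoLCA (3.20 ± 0.21, adjusted p = 4.73e-12). Hspa1b was at 7.44, 13.6 and 8.22 CPM against 1.46, 1.00 and 1.28 CPM (2.96 ± 0.20). In both, the second IsoAlloLCA library was the highest. Their sequences are nearly identical, so the split of reads between them is uncertain. Of the NRF2 and antioxidant genes 16 of 30 were lower, such as Txnrd1 (-0.57 ± 0.04), and 7 with the exon share as a covariate, while the autophagy adaptor gene Sqstm1 was higher (0.84 ± 0.06). Lysosome and autophagy genes were higher for 25 of 35 members and lower for 4 (median 0.28), with the initiating kinase gene Ulk1 (0.93 ± 0.08) and Tfe3 (0.52 ± 0.05) higher and Tfeb, of the same factor family, lower (-0.25 ± 0.06).

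Genes of glycolysis and hypoxia were lower than control with both acids: 26 of 34 with IsoLCA and 20 with IsoAlloLCA. Of all tested genes, 6.12% were lower than control with IsoLCA and 27.8% with IsoAlloLCA. Between the epimers 13 were higher and 6 lower (11 with the GC content and length correction), a share called of 55.9%, near the 59.8% of all tested genes. The median was 0.10, and 14 had intervals within 1.2-fold. The glucose transporter gene Slc2a3 was higher (429 ± 27.1 against 201 ± 7.41 CPM, 1.10 ± 0.09), as were Hilpda (0.94 ± 0.07) and the hypoxia factor gene Hif1a (531 ± 29.5 against 384 ± 18.7 CPM, 0.47 ± 0.04), and in each IsoLCA was below control (-0.77 ± 0.09, -0.64 ± 0.07 and -0.40 ± 0.04). Pgk1 (0.00 ± 0.05), Gapdh (-0.04 ± 0.04) and Ldha (-0.12 ± 0.06, adjusted p = 0.0554) were not called. Ldha was lower in 6 alternatives, DESeq2 among them (adjusted p = 0.0265), Gapdh in 1 (0.0397), and Pgk1 was higher in 1 (0.0468). Pfkp (-0.30 ± 0.05) and the lactate transporter gene Slc16a1 (-0.52 ± 0.06) were called lower.

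Interferon-stimulated genes were lower for 23 of 44 members and higher for 6 (median -0.27), beside 28.1% and 31.7% of all tested genes. With the exon share as a covariate 16 were lower and 8 higher (median -0.24). Among the 34 members with a mean of at least 5 CPM, 16 were lower and 6 higher (median -0.14). Against control 33 of the 44 were lower with IsoAlloLCA and 18 with IsoLCA, beside 27.8% and 6.12% of all tested genes. Usp18, which damps the type I receptor, was at 2.69, 2.72 and 2.57 CPM against 8.12, 5.08 and 5.25 CPM (-1.20 ± 0.18), and Rtp4 (-1.5 ± 0.22) and the GTPase genes Iigp1 (37.1 ± 4.14 against 61.0 ± 5.01 CPM, -0.72 ± 0.07) and Irgm1 (-0.67 ± 0.07) were lower. Another GTPase family went the other way, with Gbp5 at 197, 196 and 203 CPM against 95.5, 86.1 and 94.1 CPM (1.11 ± 0.05, adjusted p = 1.29e-15) and Gbp2 (0.89 ± 0.06) and Gbp3 (0.48 ± 0.06) higher. Antigen presentation genes were higher for 14 of 23 members, including H2-K1 (1499.9 ± 31.6 against 1166 ± 5.11 CPM, 0.36 ± 0.03), B2m (0.32 ± 0.05) and Tap1 (0.25 ± 0.04), and lower for 4, including the immunoproteasome genes Psmb8 (-0.43 ± 0.04), Psmb9 (-0.27 ± 0.05) and Psmb10 (-0.25 ± 0.04). The call of Psmb9 was lost with the exon share as a covariate (adjusted p = 0.0858). The class I genes have close paralogs that may share reads.

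Some genes departed from control with both epimers. Lmna, which encodes the nuclear lamins A and C (chromosome 3, 88481148 to 88503352, minus strand), was at 7.43, 6.94 and 6.55 CPM in control, 23.6, 23.1 and 24.2 CPM with IsoLCA and 68.7, 66.1 and 66.6 CPM with IsoAlloLCA. The groups were fully ordered, and the epimers were 2.84-fold apart (1.5 ± 0.05, adjusted p = 5.93e-17), while the other lamin genes Lmnb1 (-0.54 ± 0.03) and Lmnb2 (-0.25 ± 0.04) were lower with IsoAlloLCA. The metallothionein gene Mt2 had the other order: it was at 65.7, 71.8 and 61.8 CPM in control, 145, 143 and 124 CPM with IsoAlloLCA and 247, 227 and 235 CPM with IsoLCA (-0.78 ± 0.07, adjusted p = 7.57e-10). Its paralog Mt1 (-0.51 ± 0.06), with which it may share reads, and the zinc exporter gene Slc30a1 (-0.39 ± 0.06) were likewise lower with IsoAlloLCA than with IsoLCA and above control with both. Rxra, the partner of many nuclear receptors, followed the same order (33.2, 25.9 and 28.6 CPM with IsoAlloLCA, 44.9, 43.2 and 47.4 CPM with IsoLCA and 22.1, 19.4 and 22.4 CPM in control, -0.63 ± 0.07). Of the bile acid receptor and transport list, 15 of 32 members were expressed enough for a test, and 8 were higher and 3 lower. The efflux pump gene Abcb1b was at 187, 185 and 198 CPM against 97.2, 100.2 and 95.9 CPM (0.96 ± 0.03, adjusted p = 5.98e-17), and its paralog Abcb1a (1.02 ± 0.06) and the sterol sulfotransferase gene Sult2b1 (1.48 ± 0.11) were higher, while Abcc4 (-0.41 ± 0.06) and Abcg2 (-0.22 ± 0.06) were lower, the latter not with the exon share as a covariate (adjusted p = 0.253). Among receptors, Vdr was low and not called (3.5 ± 0.392 against 3.80 ± 0.512 CPM, -0.11 ± 0.15, adjusted p = 0.541), and the bile acid receptor genes Nr1h4 and Gpbar1 were not tested, with at most 1 and 4 counts in any library.

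Adhesion and migration genes were higher for 15 of 24 members and lower for 3 (median 0.43). Cd44, a hyaluronan receptor of activated cells, was higher (233 ± 8.46 against 128 ± 2.91 CPM, 0.87 ± 0.04), as was Rgs1, which damps chemokine receptors (1.87 ± 0.08), and the integrin gene Itgb2 was lower (-0.27 ± 0.04). Itgae, the integrin chain of tissue-resident cells, was higher (0.64 ± 0.21), a call that was lost in 3 alternatives, among them the fit without the second IsoAlloLCA library (adjusted p = 0.106). Of the receptor complex and its adaptors 10 of 20 were higher, among them Cd3d (0.42 ± 0.05) and the phosphatase gene Ptpn22 (0.46 ± 0.06), and 6 lower, among them the adaptor gene Lat (-0.47 ± 0.04) and the inhibitory kinase gene Csk (-0.32 ± 0.03). Tubulin genes were lower for 9 of 15 members, including Tubb4b (-0.63 ± 0.04) and Tuba1c (-0.59 ± 0.04), and higher for 1, Tubb2b (0.43 ± 0.10), or for 2 without the first IsoAlloLCA library. With the exon share as a covariate 7 were lower and 3 higher, and the median went from -0.23 to -0.08. Of the fatty acid oxidation genes 5 of 24 were higher and 6 lower, a share called of 45.8%, below the 59.8% of all tested genes. For 13 members the interval lay within 1.2-fold. With the exon share as a covariate 10 were higher and 1 lower. Without the second IsoLCA library 8 were higher. The coactivator gene Ppargc1b was lower (-0.78 ± 0.08) and the dehydrogenase gene Etfdh higher (0.53 ± 0.04).

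**Figure D5:**
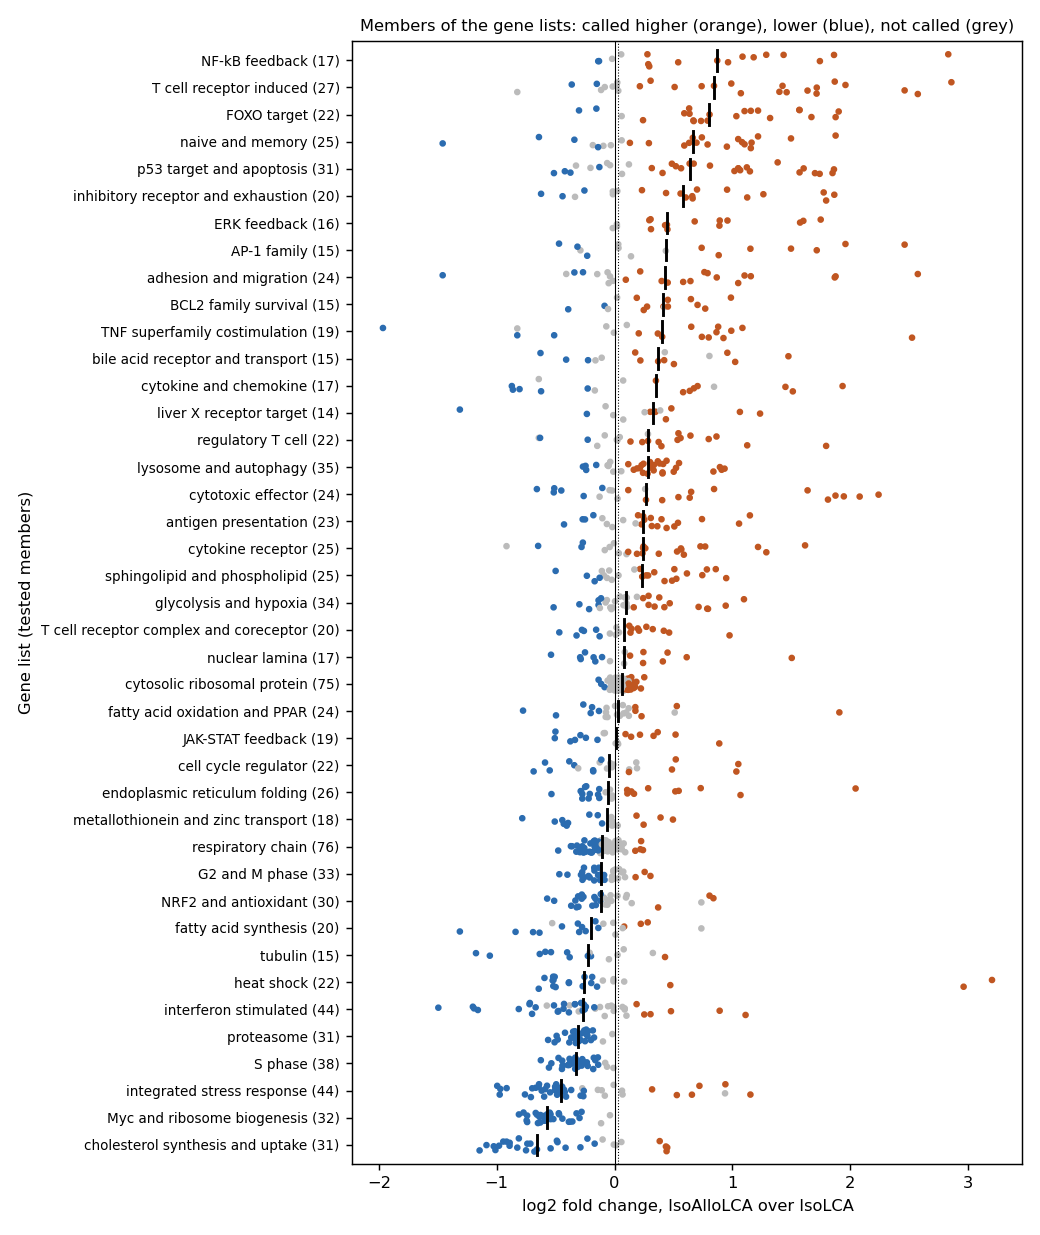
Log2 fold change, IsoAlloLCA over IsoLCA, of each tested member (points) of 41 gene lists, with the number of tested members after each name and black bars at the medians. Orange members are called higher, blue lower and grey not called, the solid line is 0 and the dotted line is the median of all tested genes (0.03). NF-kB feedback genes have the highest median (0.87) and cholesterol genes the lowest (-0.66).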

How the data were processed

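Mouse RNA-seq libraries were aligned with STAR to GRCm38/mm10 per the submitters' processing notes, and gene values were made with HOMER's analyzeRepeats (exons, condensed genes, raw) per the file headers. The expected counts deposited by the authors come in 0.5 steps. They were rounded up to whole numbers, where whole counts had been assumed in the design. Aligner settings, strand use and the treatment of reads with several positions are not given in the sources used here, so antisense and paralogous genes may share reads. The table holds 24537 genes and no mitochondrial genes.

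All 24 libraries entered 1 edgeR 4.0.16 quasi-likelihood fit (R 4.3.3, TMM scaling, filterByExpr, group means without a block). Its common biological coefficient of variation was 4.413%. The standard error is the absolute log2 fold change over the square root of F, and a gene is called at a Benjamini-Hochberg adjusted p under 0.05 over 13044 genes. CPM values are the rounded counts over the TMM-scaled library size. A simulation with known fold changes tested the scripts.

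The compared groups and the 47 gene lists were chosen with earlier results of these data known. Named genes are the 12 largest rises and falls (called, with no overlap of libraries and 10 CPM or more in either group), for each list and direction up to 3 called members of lowest adjusted p, a fixed set, exceptions to a list's direction, and further genes picked after their values were seen. Some genes of the lists are counted but not reported here by name. Promoter windows came from RefSeq (GRCm38.p6). Alternatives were other scalings, filters, DESeq2 1.42.0, a replicate block, the exon share as a covariate, leaving out each library and, added after seeing the data, offsets for GC content and length.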

Additional observations from a re-analysis of the deposited data

How the results depend on the processing

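The count of called genes between the epimers ranged from 6752 to 7928 when each library was left out in turn and from 6221 (exon share as a covariate) to 8102 (GC content and length offsets, chosen after seeing the data) in the other alternatives. Higher genes ranged from 3563 to 4143 and lower genes from 3189 to 3795 without single libraries. Genes beyond 2-fold numbered 565 to 872 without single libraries and 200 with a mean of at least 5 CPM, which tests fewer weakly expressed genes, against 701. Without single libraries, IsoAlloLCA differed from control in 6651 to 7631 genes and IsoLCA in 815 (without the second control library) to 1198, against 1284 with all. In the other alternatives these counts were 6409 to 7796 and 888 to 1682 (exon share as a covariate). The exon share difference without single libraries was -6.46 to -3.68 percentage points. A fit with a replicate block called 7876 genes. Same-numbered libraries of the epimers deviated together with correlations of 0.396, 0.33 and 0.0704, and every library correlated best with its own number, a hint from the data and not from the design. The exon share was likewise highest in the first and lowest in the second library of both acids. Its part in these correlations was not tested.

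Among the 315 genes for which the alternatives were compared, the sign changed for Bcl2 (-0.13) with the GC content and length offsets and for Cd79b (0.035), Mlxip (-0.14) and Rpl7a (0.0077) with the exon share as a covariate. The cause was not tested.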
